A study of Mus musculus with 10 samples.

Results

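The comparison of luminal with basal cells of mouse mammary glands with no ablation label rests on 4 of the 10 RNA sequencing libraries of the series. They are the 2 libraries whose cell type label is luminal cells (LC) and the 2 whose label is basal cells (BC), all of them sorted by flow cytometry from antibody-stained gland. None of the 4 carries a treatment label. The second library of each population is also marked WT, and the first is not, so a genotype is labelled for replicate 2 alone. No mouse line, age, sort gate or statement that the replicates came from separate animals is given. The p-values therefore measure only the spread between libraries, estimated within groups over all 10 libraries of the series. The other 6 libraries are Tomato-marked basal (TBC), hybrid (THC) and luminal (TLC) cells, 2 of each, labelled as treated by luminal cell ablation. They share the model fit, and TBC and TLC return in 1 comparison near the end.

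The mammary epithelium is a bilayer. Luminal cells face the duct lumen, sense ovarian hormones and pituitary prolactin, and include the cells that make milk. Basal cells, most of them myoepithelial, lie on the basement membrane, carry a smooth-muscle type contractile apparatus and squeeze milk outward in response to oxytocin. Transcription factors of the p63 family maintain the basal state, and factors such as Foxa1 and Elf5 belong to separate luminal branches, the hormone-sensing cells and the secretory progenitors.

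The libraries held 5381351 and 12286209 gene counts in BC and 9746963 and 13685674 in LC. Levels below are CPM, read counts scaled to a common library size with TMM factors. They are given in the order replicate 1 and replicate 2 and are not divided by transcript length. Signed values in brackets after a gene are log2 differences, LC minus BC, with their standard error after the ± sign. A gene was called at an adjusted p under 0.05 (Benjamini-Hochberg, all 19757 genes tested) in the quasi-likelihood test of edgeR. In bulk libraries, fewer cells of a type and less RNA per cell cannot be told apart.

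Of the 19757 genes, 2274 were called higher in LC (11.5%) and 2468 lower (12.5%), and 6874 had an unadjusted p under 0.05. The shares of 11.5% and 12.5% are the background for all list counts below. The median log2 difference over all genes tested was -0.04. In 4740 of the 4742 called genes the libraries of the populations did not overlap. This is no separate support, because calls from the same 2 libraries a group favour genes without overlap. The large differences lay mainly on the basal side, where 599 genes were called at a log2 difference of -4 or below against 141 at 4 or above. Genes called higher held 22.8% and 23.8% of the counts of the LC libraries and 7.45% and 7.39% of those of BC. Genes called lower held 19.9% and 23.7% of the counts of BC and 5.77% and 5.52% of those of LC. Leaving out a library lowered the number called higher by over 1.5 times in 3 cases, to 1494 without BC replicate 1, 1487 without BC replicate 2 and 1486 without LC replicate 2. The number called lower fell to 1645 without LC replicate 2.

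**Figure D1:**
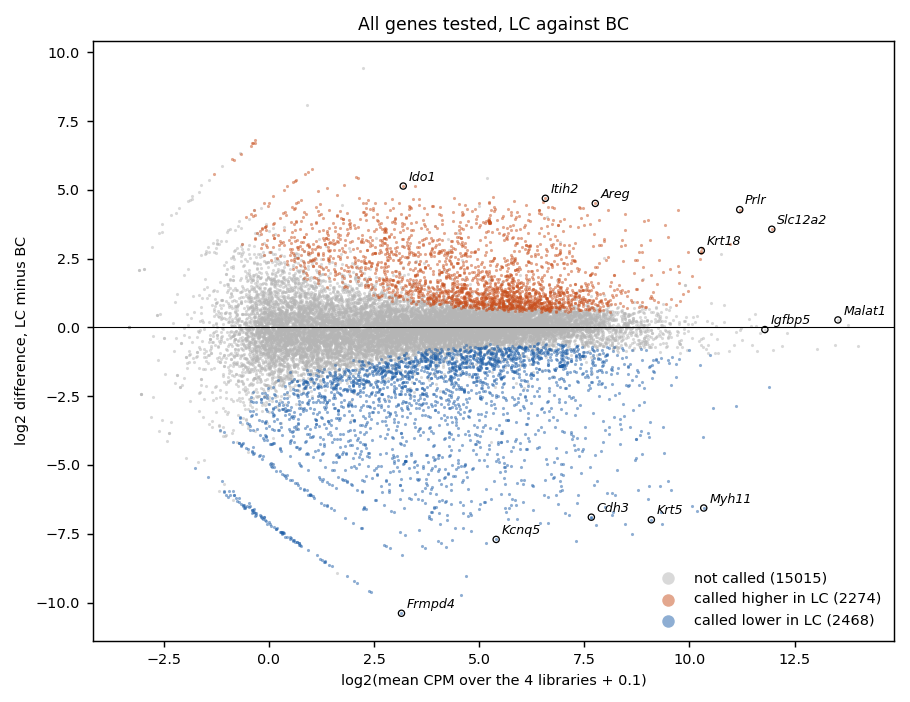
Each point is 1 of the 19757 genes tested, with log2 of its mean CPM over the 4 libraries (plus 0.1) on the x axis and the log2 difference LC minus BC on the y axis. Orange points are the 2274 genes called higher in LC, blue the 2468 called lower and grey those not called. The blue points reach further from 0 than the orange ones, with Frmpd4, at 0 counts in LC, the lowest, whereas Malat1 and Igfbp5 lie near 0.

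The labels were compared with defining markers of each layer. All 6 basal markers (Krt5, Krt14, Acta2, Trp63, Myh11 and Oxtr) were called lower in LC. Of 13 luminal markers 12 were called higher (Krt8, Krt18, Krt19, Epcam, Cldn3, Cldn7, Esr1, Pgr, Prlr, Elf5, Kit and Aldh1a3), and Gata3 was not called. LC thus held markers of the hormone-sensing branch (Esr1, Pgr) and of the progenitor branch (Elf5, Kit). Transcripts of each population were also read at low levels in the other. Among 337 genes called lower with at least 10 CPM in BC and a log2 difference of -4 or below, the median level in LC was 3.24% of the BC mean in replicate 1 and 1.34% in replicate 2, and 271 of the 337 were higher in LC replicate 1 than in LC replicate 2. Among 615 genes called higher with at least 10 CPM in LC and a log2 difference of 2 or above, the median level in BC was 14.4% of the LC mean in replicate 1 and 10.9% in replicate 2. The thresholds on the log2 difference cap these percentages in advance, so their size is partly set by the choice of genes. The thresholds of these sets differ, so the percentages of LC and BC are not comparable.

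Markers of 9 other cell types were read in the same 4 libraries. The 18 endothelial markers had counts in every library and summed to 777 and 237 CPM in BC and 523 and 213 CPM in LC. In 17 of the 18 the first replicate of both populations was higher than the second, for example Pecam1 at 125 and 28.4 CPM in BC and 84.5 and 19.96 in LC and Kdr at 44.3 and 5.44 CPM in BC and 19.4 and 1.94 in LC. Cldn5 alone was called, lower in LC (-2.51, and -3.83 without LC replicate 1). Without LC replicate 1, 9 of the 18 were called lower, and without BC replicate 1 or without LC replicate 2, 0. Fibroblast markers summed to 661 and 677 CPM in BC and 465 and 347 CPM in LC. Of these, 6 of 15 were called lower, among them Fbln2 (-3.75), Fbln1 (-4.99), Col6a1 (-3.11) and Pdgfra (-2.17), and 1, Col6a3, higher (2.46), which was not called without BC replicate 2 or without LC replicate 1. Dcn, another fibroblast marker, read 119 and 85.3 CPM in BC and 269 and 274 in LC and was not called, but it was called higher by DESeq2 (1.41) and with BC and LC libraries alone (1.37). Among pericyte markers Pdgfrb (-3.28), Cspg4 (-2.44) and Mcam (-2.63) were called lower and Notch3 higher, but Mcam was called without BC replicate 2 and in no other fit that left out a library. Macrophage and dendritic markers summed to 77.2, 28.3, 38.5 and 30.7 CPM in the order above, with 0 of 15 called. Lymphocyte, adipocyte, erythrocyte and skeletal muscle markers were mostly too low to be tested, with 10 of 15, 8 of 10, 6 of 7 and 8 of 10 members left out. Of the Schwann cell list, Mbp (2.36) and Mal (3.48) were called higher and Ngfr lower (-4.29). The part of endothelial, fibroblast, pericyte and Schwann cells in the differences below was not tested.

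Keratins, the intermediate filaments of epithelia, separated the populations. Krt5, the type II keratin of basal cells (chr15:101707070-101712898, minus strand, GRCm38), read 768 and 1402 CPM in BC and 11.5 and 5.74 in LC (-6.99 ± 0.59, adjusted p = 2.09e-05). Its partner Krt14 (chr11:100203162-100207548, minus strand) read 2344 and 2216 CPM in BC and 34.8 and 10.6 in LC (-6.66 ± 0.65, adjusted p = 5.40e-05), and the stress and basal keratin Krt17 read 1481 and 994 CPM in BC and 30.9 and 14.4 in LC (-5.78). For each of the 3, both BC libraries lay far above both LC libraries. The remaining keratins of stratified epithelia differed less and in both directions. Krt16 was lower in LC (-2.33), and Krt15 too (-2.30), though Krt15 was not called without BC replicate 2 (-1.15), LC replicate 1 or LC replicate 2. Krt6a went the other way, with 3.92 and 4.76 CPM in BC and 42.1 and 20.3 in LC (2.82 ± 0.46, adjusted p = 0.00122). Krt6a has the close paralog Krt6b, at 1.18 and 1.7 CPM in BC and 3.47 and 1.36 in LC and not called, and reads shared by such copies are not assigned with certainty, which also holds for Krt14, Krt16 and Krt17.

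Of the keratins of simple epithelia 5 of 6 were called higher in LC and 0 lower. Krt7 read 25.1 and 30.1 CPM in BC and 347 and 398 in LC (3.75 ± 0.28, adjusted p = 6.20e-06) and Krt19 101 and 91.2 CPM in BC and 1385 and 1146 in LC (3.72 ± 0.29, adjusted p = 8.21e-06). Krt8 (chr15:101996698-102004482, minus strand) read 417 and 317 CPM in BC and 2386 and 1769.6 in LC (2.50 ± 0.33, adjusted p = 2.56e-04), and its partner Krt18 383 and 246 CPM in BC and 2581 and 1773 in LC (2.79). Both LC libraries lay above both BC libraries for each of the 4. Krt80 was also called higher (1.90), but not without BC replicate 2 or without LC replicate 1 (1.07).

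**Figure D2:**
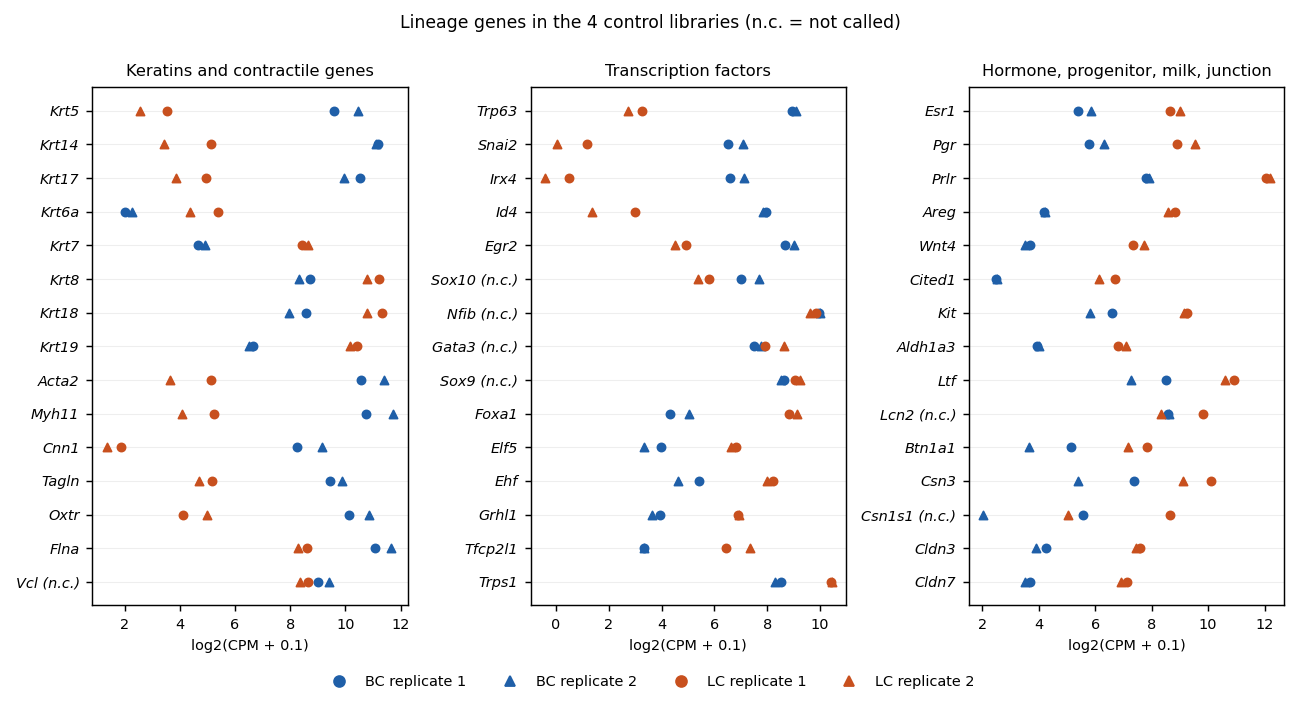
Log2(CPM + 0.1) of 45 lineage genes in each control library. Blue marks are BC and orange marks LC, circles are replicate 1 and triangles replicate 2, and n.c. marks genes that were not called. Keratins, contractile genes, hormone receptors and junction genes separate by colour without overlap, whereas Nfib, Lcn2 and Csn1s1 overlap or nearly touch.

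Of the 51 lists, the contractile apparatus had the largest share of members called in 1 direction: 21 of 24 tested members were called lower in LC, 0 higher and 3 were not called, with a median log2 difference of -4.24. Acta2, smooth-muscle actin (chr19:34241090-34255590, minus strand), read 1510.1 and 2684 CPM in BC and 34.9 and 12.4 in LC (-6.48 ± 0.55, adjusted p = 1.57e-05). Myh11, smooth-muscle myosin heavy chain, read 1716 and 3418 CPM in BC and 37.7 and 16.8 in LC (-6.56), and the calponin Cnn1, which binds actin filaments, 302 and 568 CPM in BC and 3.58 and 2.44 in LC (-7.19 ± 0.47, adjusted p = 3.61e-06). Acta2 shares stretches with the paralog Actg2, and reads of such stretches are uncertain. In all 3 genes the BC replicates differed from each other far less than BC differed from LC. The oxytocin receptor Oxtr read 1127 and 1836 CPM in BC and 17.1 and 31.7 in LC (-5.92 ± 0.47, adjusted p = 8.56e-06). Mylk, the kinase that switches on smooth-muscle myosin (-6.23), the tropomyosin Tpm2 (-6.005) and the actin nucleator Lmod1 (-6.17) lay in the same range. Differences were smaller in members that most cells express: Flna, a filamin (-2.94), Csrp1 (-1.86), Tpm1 (-1.58), and Actn1 (-1.44). Vcl, which links actin to adhesions, read 517 and 675 CPM in BC and 405 and 331 in LC and was not called (-0.70 ± 0.24, adjusted p = 0.0581), although both LC libraries lay below both BC libraries. It was called by DESeq2 (-0.69), by limma-voom (-0.68), with upper-quartile factors (-0.76), without a filter (-0.70), with at least 5 CPM in 2 libraries (-0.72), with the library-number set as a term (-0.70) and on thinned counts (-0.73). Des, the muscle intermediate filament, was low everywhere, at 4.7 and 1.62 CPM in BC and 3.14 and 1.44 in LC.

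Promoter windows were read because the contractile genes moved together and many of them are textbook targets of serum response factor, which binds the CArG box. The windows are those of RefSeq on GRCm38.p6, from 250 bases before to 50 after a transcription start, and 18 of the 21 called members had one. The CArG box (CC, then 6 of A or T, then GG, which reads alike on both strands) was present in 3 of the 18 (16.7%), against 1.81% of all 27025 genes with a window, 2.27% of the genes called lower and 1.44% of those called higher. The matches are shown with 40 bases on each side, 5′ to 3′ on the gene's strand, the box in capitals.
Myl6: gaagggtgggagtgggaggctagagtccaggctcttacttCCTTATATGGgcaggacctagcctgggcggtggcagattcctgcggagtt
Myl9: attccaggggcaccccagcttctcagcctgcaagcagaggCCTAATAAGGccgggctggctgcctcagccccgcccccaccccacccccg
Cnn2: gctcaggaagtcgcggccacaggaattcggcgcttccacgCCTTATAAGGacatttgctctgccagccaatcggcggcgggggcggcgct
The Myl6 stretch is chr10:128493010-128493099 on the minus strand, before the second of its annotated starts, with the box beginning 50 bases upstream. That of Myl9 is chr2:156775263-156775352 on the plus strand, with the box at -161, and that of Cnn2 is chr10:79988504-79988593 on the plus strand, with the box at -56. Myl9, a regulatory myosin light chain, read 173 and 321 CPM in BC and 6.5 and 1.94 in LC (-5.92 ± 0.53, adjusted p = 3.89e-05). Cnn2, a calponin of many cell types, read 141 and 219.5 CPM in BC and 22.7 and 21 in LC (-3.05), and Myl6, the essential light chain of nonmuscle and smooth-muscle myosin, 347 and 357 CPM in BC and 178 and 172 in LC (-1.01), a call lost without LC replicate 2. Vcl, not called, also holds one, at -227. Acta2, Myh11 and Cnn1 were not among the members with a match. The list was chosen for smooth-muscle genes, many of them known targets of this factor. Its share of boxes therefore does not bear on LC against BC, and a part of serum response factor in the differences was not tested.

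Among transcription factors of the basal layer 10 of 19 were called lower in LC and 0 higher (median -1.95). Trp63, which encodes p63, read 493 and 539.6 CPM in BC and 9.54 and 6.46 in LC (-6.02 ± 0.37, adjusted p = 3.01e-06). Snai2, the repressor known as Slug, read 91.7 and 136 CPM in BC and 2.17 and 0.933 in LC (-6.26), and Irx4, an Iroquois homeobox factor, 96.6 and 139 CPM in BC and 1.3 and 0.646 in LC (-6.97 ± 0.43, adjusted p = 3.01e-06). Id4, an inhibitor of helix-loop-helix factors, read 248 and 230.1 CPM in BC and 7.8 and 2.44 in LC (-5.59), and Egr2 409 and 523 CPM in BC and 30.03 and 22.3 in LC (-4.16). Mef2c (-3.88), Tcf7l1 (-1.95) and Foxp1 (-1.11) were also called. Serum response factor itself (Srf) was not, at 87 and 118 CPM in BC and 114 and 62.2 in LC, while its cofactor Mrtfa was called at a small difference (-0.82), though not without BC replicate 2 or without LC replicate 2. Sox10 read 127 and 206 CPM in BC and 55.9 and 41.9 in LC without overlap but missed the threshold (-1.77 ± 0.61, adjusted p = 0.0684), and it was called by DESeq2 (-1.76), with BC and LC libraries alone (-1.80), with at least 5 CPM in 2 libraries (-1.79) and with the library-number set as a term (-1.64). Nfib differed little, at 987 and 1016 CPM in BC and 927 and 797 in LC (-0.22).

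On the luminal side 11 of 23 factors were called higher and 0 lower (median 1.09). Foxa1, the pioneer factor of hormone-sensing cells, read 19.8 and 32.8 CPM in BC and 458 and 559.6 in LC (4.26 ± 0.30, adjusted p = 4.61e-06). Elf5, of the secretory branch, read 15.7 and 9.86 CPM in BC and 111 and 98.9 in LC (3.06), and the related ETS factor Ehf 42.9 and 24.2 CPM in BC and 299.9 and 258 in LC (3.07). Tfcp2l1 (3.63), Grhl1 (3.15), Spdef (3.68) and Trps1 (2.02) were called as well. Gata3, a factor needed for luminal cells, read 181 and 219 CPM in BC and 243 and 394 in LC (0.67 ± 0.30, adjusted p = 0.134): the ranges did not overlap, but the difference did not pass, except in the fit without a filter (0.67). Sox9 did not overlap or pass either (403 and 370.1 CPM in BC and 528 and 606 in LC; 0.55 ± 0.24, adjusted p = 0.121). Grhl2 (0.20), Stat5a (0.43) and Tbx3 (0.59) were not called either. Cebpb lay in the opposite direction, at 335 and 213 CPM in BC and 164 and 96.3 in LC, and was not called (adjusted p = 0.062). It was called without LC replicate 1 (-1.50), with upper-quartile factors (-1.16), by DESeq2 (-1.08), without a filter (-1.07) and with the library-number set as a term (-1.09).

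Of 13 hormone-sensing genes tested 9 were called higher in LC, 0 lower, with a median of 3.94. The estrogen receptor Esr1 read 41.5 and 57.1 CPM in BC and 400.0 and 511 in LC (3.20 ± 0.25, adjusted p = 8.63e-06) and the progesterone receptor Pgr 55.1 and 78.7 CPM in BC and 477 and 744 in LC (3.19 ± 0.32, adjusted p = 3.85e-05). The prolactin receptor Prlr (chr15:10177238-10349180, plus strand) read 221 and 238 CPM in BC and 4247 and 4683 in LC (4.28 ± 0.35, adjusted p = 1.12e-05). Ligands that hormone-sensing cells release followed: Areg, an EGF family ligand induced by estrogen, read 18 and 18.5 CPM in BC and 453 and 378 in LC (4.51 ± 0.29, adjusted p = 3.28e-06), and Wnt4, induced by progesterone, 12.9 and 11.3 CPM in BC and 161 and 214 in LC (3.96 ± 0.31, adjusted p = 7.55e-06). Cited1, a transcriptional coactivator, read 5.49 and 5.61 CPM in BC and 105 and 69.99 in LC (3.97) and Stc2 28.8 and 47 CPM in BC and 430.3 and 906 in LC (4.13). Tnfsf11, the RANK ligand, was at 0 counts in both BC libraries and 0.867 and 1.22 CPM in LC, and was not called (adjusted p = 0.0865). It was called by DESeq2 (adjusted p = 0.0126), without a filter (3.90e-04) and with the library-number set as a term (0.00794). Its receptor Tnfrsf11a was lower in LC at 39.98 and 73.3 CPM in BC and 24.6 and 19.1 in LC (-1.38 ± 0.31, adjusted p = 0.00643), a call lost without BC replicate 2 (-0.86) or without LC replicate 2. Greb1, an estrogen target, was high in only 1 library, LC replicate 2 (4.7 and 4.93 CPM in BC and 4.23 and 63.7 in LC), and was not called. It was called without LC replicate 1 (3.72), by DESeq2 (2.81) and with at least 5 CPM in 2 libraries (2.80).

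Luminal progenitor markers were called higher in 9 of 14 cases and lower in 1, Tnfrsf11a (above), which was not called without BC replicate 2 or without LC replicate 2. The receptor tyrosine kinase Kit read 97 and 55.6 CPM in BC and 616 and 559.9 in LC (2.95 ± 0.54, adjusted p = 0.00335), the retinaldehyde dehydrogenase Aldh1a3 15.1 and 16.2 CPM in BC and 112 and 135 in LC (2.98 ± 0.42, adjusted p = 6.04e-04), and lactoferrin, Ltf, 367 and 154 CPM in BC and 1923 and 1538 in LC (2.73 ± 0.42, adjusted p = 7.01e-04). Haptoglobin, Hp, read 22.1 and 5.78 CPM in BC and 222 and 103 in LC (3.60). Lcn2, an iron-scavenging lipocalin, was at 380.2 and 387 CPM in BC and 894 and 324 in LC, and was not called (adjusted p = 0.238), except without LC replicate 2 (1.20).

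Milk genes were uneven between replicates. Of 12 tested members 8 were called higher and 0 lower (median 2.51); 4 were called without BC replicate 2, 3 without LC replicate 1 and 5 with BC and LC libraries alone. Btn1a1, butyrophilin of the milk fat globule, read 34.9 and 12.4 CPM in BC and 226 and 143 in LC (2.999 ± 0.43, adjusted p = 7.13e-04). Casein kappa, Csn3, read 167 and 41.6 CPM in BC and 1089 and 555 in LC (2.99), a call lost without LC replicate 1, as was that of alpha-lactalbumin, Lalba (8.62 and 1.28 CPM in BC and 61.2 and 23.3 in LC; 3.24, and 5.02 without BC replicate 1). Csn1s1 read 47.4 and 4 CPM in BC and 397 and 32.5 in LC and Csn2 6.86 and 0.51 CPM in BC and 22.8 and 5.74 in LC. In both of these caseins the first replicate of each population was far above the second, and neither was called (adjusted p = 0.161 and 0.305). Wap, Glycam1, Csn1s2b and Olah had too few counts to be tested.

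Both caseins carry the motif TTCNNNGAA, the form bound by STAT5, which relays prolactin signals to milk genes. It was searched on both strands, where it reads alike, and is shown with 40 bases on each side, the motif in capitals.
Csn1s1: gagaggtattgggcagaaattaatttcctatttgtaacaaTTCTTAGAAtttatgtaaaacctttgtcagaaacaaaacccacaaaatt
Csn2: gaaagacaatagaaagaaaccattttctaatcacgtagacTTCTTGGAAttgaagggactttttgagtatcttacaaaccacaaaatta
The first is chr5:87666068-87666156 on the plus strand, with the motif at -100, and the second chr5:87699470-87699558 on the minus strand, with the motif at -93 (GRCm38.p6, RefSeq). Of the 7 tested milk list members with a window 3 held the motif (42.9%), against 9.55% of all genes with a window, 7.94% of the genes called higher and 8.04% of those called lower. The third, Csn1s2a, holds it after its start. All 3 members with the motif were among those not called. The rest of the 12 tested members had no window. The list was chosen for milk genes, to which STAT5 is known to relay prolactin signals. Its share of motifs therefore does not bear on LC against BC, and a part of STAT5 was not tested.

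Mucins and surface glycoproteins were mixed, with 8 of 18 called higher (5 without BC replicate 2 and 5 without LC replicate 1) and 2 lower. Ceacam1, an apical adhesion molecule, read 63.1 and 32.6 CPM in BC and 494 and 252 in LC (2.97 ± 0.39, adjusted p = 3.08e-04). In the other direction, podoplanin, Pdpn, read 55.5 and 52.5 CPM in BC and 0.976 and 0.144 in LC (-6.74 ± 0.84, adjusted p = 5.13e-04) and the membrane peptidase Mme (CD10) 809.6 and 779 CPM in BC and 123 and 225 in LC (-2.19). Cd44 (0.30) and Cd9 (0.40), present in both populations, were not called.

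**Figure D3:**
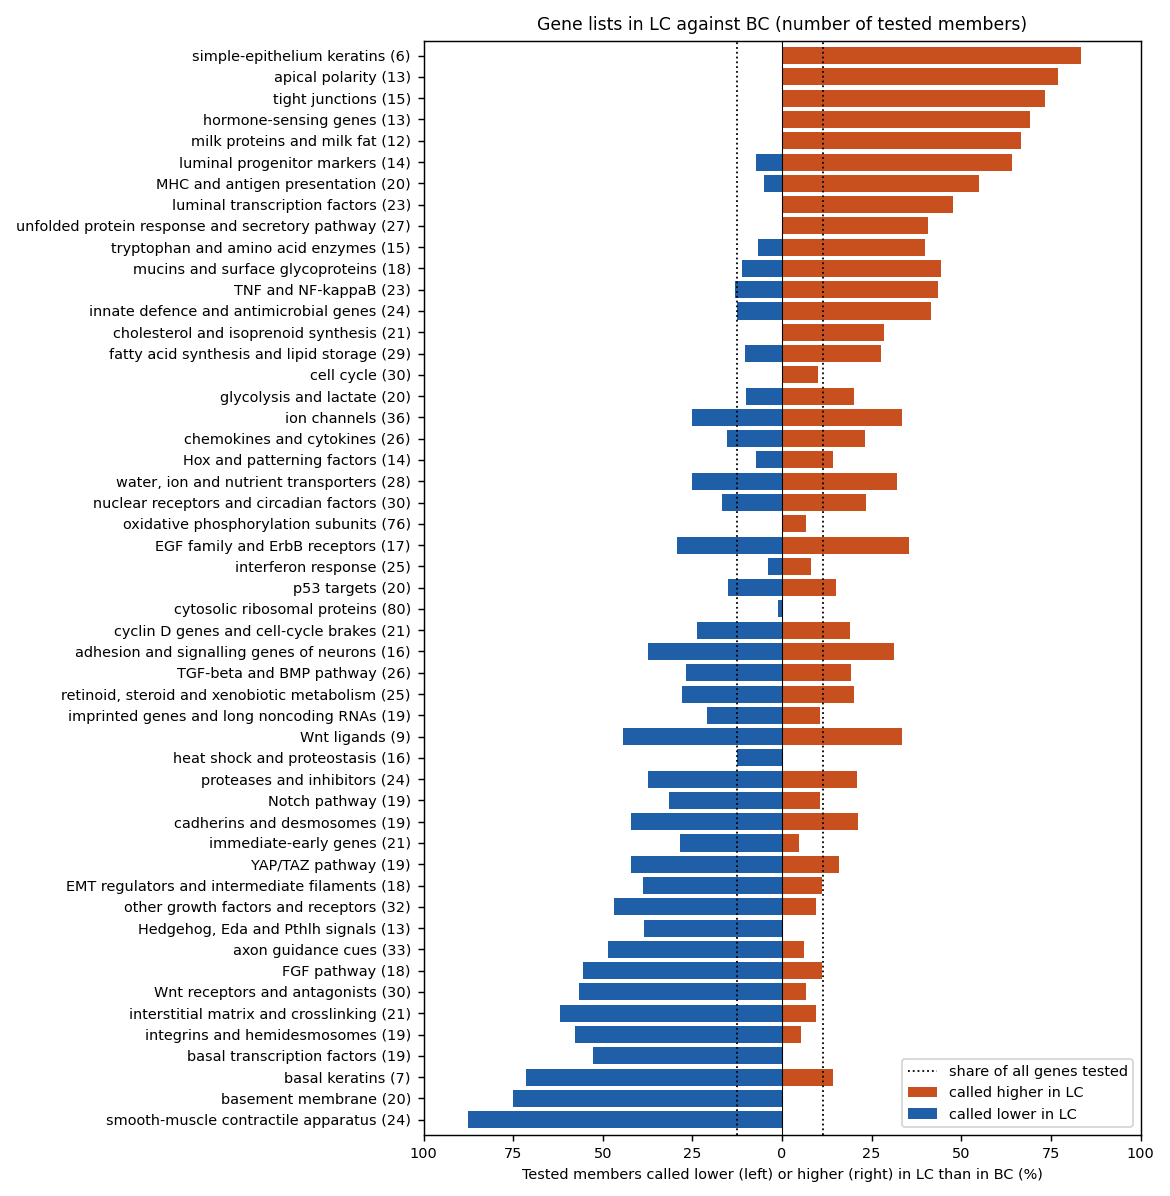
Share of tested members of 51 gene lists called lower in LC (blue, to the left) and higher (orange, to the right), with the number tested in brackets. Dotted lines mark the shares of all genes tested, 12.5% and 11.5%. Contractile, basement membrane and basal factor lists stand at the bottom with 0 orange, and simple keratins, apical polarity and tight junctions at the top with 0 blue.

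Tight junctions seal the luminal side of the cell. Of 15 tight junction genes 11 were called higher in LC and 0 lower (median 3.18), and the count was 11 whichever library was left out. Cldn3 read 19.2 and 14.9 CPM in BC and 193 and 172 in LC (3.43 ± 0.24, adjusted p = 4.14e-06), Cldn7 12.9 and 11.2 CPM in BC and 140.5 and 122 in LC (3.45 ± 0.24, adjusted p = 4.14e-06) and Cldn4 89.4 and 41.2 CPM in BC and 1323 and 613 in LC (3.90 ± 0.68, adjusted p = 0.00301), all claudins that seal the space between cells. Cingulin, Cgn (3.59), and the tricellular protein Marveld2 (3.39) were also higher. The scaffold Tjp1 (ZO-1) was present in both, at 311 and 304 CPM in BC and 514 and 356 in LC, and not called. Apical polarity genes were called higher in 10 of 13 cases and lower in 0 (median 1.72). Podxl, a sialomucin of apical membranes, read 49.6 and 24.7 CPM in BC and 478 and 292 in LC (3.39 ± 0.38, adjusted p = 1.08e-04), the Crumbs protein Crb3 2.94 and 2.98 CPM in BC and 19 and 17.7 in LC (2.63), and Rab25, of apical recycling, 6.86 and 7.74 CPM in BC and 51.5 and 46.3 in LC (2.73). Between the atypical kinases of the Par complex, Prkcz was higher (2.67) and Prkci not called (0.08). Pard3 lay slightly below BC (-0.43) and was not called.

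Cadherins and desmosomal genes were mixed: 4 of 19 were called higher and 8 lower, 5 of the latter without LC replicate 2. E-cadherin, Cdh1, read 278 and 254 CPM in BC and 1208 and 932 in LC (2.01 ± 0.27, adjusted p = 3.03e-04), and Epcam 322 and 235 CPM in BC and 1277 and 1162 in LC (2.13 ± 0.28, adjusted p = 2.49e-04). P-cadherin, Cdh3, read 368 and 438 CPM in BC and 5.2 and 1.79 in LC (-6.90 ± 0.49, adjusted p = 6.91e-06), with both LC libraries far below both BC libraries. Desmosomal genes went both ways. Dsc2 (1.63) and Pkp2 (8.43 and 5.1 CPM in BC and 84.8 and 74.3 in LC; 3.59) were higher in LC, and Dsc3 (13.1 and 14.8 CPM in BC and 0.325 and 0.144 in LC; -5.92) and Pkp1 (-1.80) lower. The shared catenins Ctnnb1 (0.31) and Ctnna1 (0.14) were not called.

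Integrins and hemidesmosomes attach basal cells to the basement membrane. Among integrins and hemidesmosome genes 11 of 19 were called lower in LC (7 without BC replicate 2) and 1 higher. Col17a1, the hemidesmosomal collagen, read 770.0 and 961 CPM in BC and 16 and 12.8 in LC (-5.91 ± 0.51, adjusted p = 2.10e-05), and Dst, which anchors keratins there, 7258 and 5259.8 CPM in BC and 1469.8 and 1317 in LC (-2.17). Itga9 (95.6 and 112 CPM in BC and 3.14 and 3.16 in LC; -5.04) and Itga1 (-4.58) were lower, whereas Itgb6, an epithelial beta subunit, was higher at 9.6 and 11.6 CPM in BC and 55.2 and 56.9 in LC (2.39 ± 0.26, adjusted p = 6.71e-05). Plectin, Plec (0.43), and Itgav (0.23) were not called.

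Genes of the basement membrane itself were called lower in 15 of 20 cases and higher in 0 (median -1.92). Laminin chains differed among themselves. Lama1 read 239 and 539.6 CPM in BC and 13.6 and 9.48 in LC (-5.09 ± 0.50, adjusted p = 5.90e-05), Lama3 965 and 979 CPM in BC and 72.4 and 63.5 in LC (-3.84 ± 0.29, adjusted p = 6.53e-06), and Lamb3 539.6 and 695 CPM in BC and 49.3 and 47.1 in LC (-3.68 ± 0.24, adjusted p = 3.21e-06). Lama5, at 228 and 488 CPM in BC and 402 and 679.9 in LC, was not called, except without BC replicate 2, where it was higher in LC (1.26). The collagen IV chains Col4a1 (-3.62) and Col4a2 (-4.51), which share a promoter, and the pair Col4a5 (-1.56) and Col4a6 (-2.06) were all lower in LC. Col7a1, the anchoring fibril collagen, read 257 and 615 CPM in BC and 9.86 and 8.26 in LC (-5.59 ± 0.45, adjusted p = 1.25e-05), and perlecan, Hspg2, 569 and 859 CPM in BC and 67.5 and 48.5 in LC (-3.62).

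Interstitial matrix genes were called lower in 13 of 21 cases (median -2.63), and 2 were higher. Sparc read 799.8 and 1260.5 CPM in BC and 29.5 and 8.83 in LC (-5.76 ± 0.59, adjusted p = 8.30e-05), biglycan, Bgn, 489 and 712 CPM in BC and 28.4 and 5.53 in LC (-5.17), and fibrillin-1, Fbn1, 230.3 and 334 CPM in BC and 13.9 and 3.23 in LC (-5.08). The fibroblast markers that were lower in LC stand beside these values, and their part in them was not tested. Against the list, Col8a1, a network-forming collagen, was higher in LC at 14.7 and 8.16 CPM in BC and 223 and 129.6 in LC (3.98 ± 0.53, adjusted p = 5.45e-04), as was Ltbp1, which holds latent TGF-beta in the matrix (24.5 and 25.3 CPM in BC and 97.4 and 245 in LC; 2.78).

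Proteases were found on both sides. Mmp2, gelatinase A, read 201 and 436 CPM in BC and 6.07 and 1.87 in LC (-6.38 ± 0.58, adjusted p = 5.34e-05), Adamts1 3387 and 1434 CPM in BC and 218 and 88.9 in LC (-3.97) and tissue plasminogen activator, Plat, 174 and 156 CPM in BC and 20.6 and 19 in LC (-3.06 ± 0.20, adjusted p = 3.28e-06). In LC, matriptase, St14, read 77.6 and 100.1 CPM in BC and 339.6 and 341 in LC (1.93 ± 0.20, adjusted p = 5.17e-05), its inhibitor Spint1 25.7 and 51.4 CPM in BC and 168 and 291 in LC (2.56), prostasin, Prss8, 12.2 and 18.9 CPM in BC and 47.2 and 47.2 in LC (1.59) and the membrane metalloproteinase Mmp15 27 and 25.8 CPM in BC and 216 and 219 in LC (3.04). In all, 5 of 24 were called higher and 9 lower.

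Signalling genes were described by ligand and receptor. Among Wnt ligands 3 of 9 were called higher and 4 lower (2 of the latter without BC replicate 2 or without LC replicate 2). Wnt4 (above) and Wnt7b, at 7.25 and 4.85 CPM in BC and 70.1 and 61.7 in LC (3.47 ± 0.31, adjusted p = 1.68e-05), were luminal. Wnt10a, at 19.99 and 16.1 CPM in BC and 0.325 and 0.0718 in LC (-6.57 ± 0.74, adjusted p = 1.00e-04), and Wnt9a, at 23.5 and 19.8 CPM in BC and 1.73 and 1.44 in LC (-3.77 ± 0.35, adjusted p = 2.08e-05), were basal. Wnt5a overlapped between the populations (42.1 and 154 CPM in BC and 34.4 and 129.5 in LC) and was not called. Receptors and antagonists were mostly basal, with 17 of 30 called lower in LC. Lgr5, the R-spondin receptor, read 423 and 592 CPM in BC and 7.7 and 3.52 in LC (-6.53 ± 0.49, adjusted p = 9.59e-06). The secreted antagonists Wif1 (102 and 294 CPM in BC and 1.95 and 1 in LC; -7.12), Dkk3 (285 and 214 CPM in BC and 4.77 and 7.11 in LC; -5.37) and Sfrp1 (227 and 150.3 CPM in BC and 6.4 and 5.6 in LC; -4.98) were all far lower in LC. The coreceptors Lrp5 (0.61) and Lrp6 (-0.31) were not called, but Lrp5 was with the library-number set as a term (0.63). Fzd4 (1.24) and Fzd6 (1.005) were the 2 called higher; Fzd4 was lost without BC replicate 2 or without LC replicate 2, and Fzd6 without BC replicate 1 (0.61), LC replicate 1 or LC replicate 2, while it read 1.59 without BC replicate 2.

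Notch receptors are switched on by ligands of neighbouring cells. The ligands Jag2 (189.5 and 293 CPM in BC and 4.99 and 3.95 in LC; -5.76 ± 0.34, adjusted p = 3.01e-06), Dll1 (245 and 233 CPM in BC and 10.3 and 5.24 in LC; -4.96 ± 0.35, adjusted p = 4.56e-06) and Jag1 (320.2 and 283 CPM in BC and 102 and 98.6 in LC; -1.59 ± 0.28, adjusted p = 0.0016) were lower in LC. The receptor Notch3 was higher in LC, at 49.2 and 24 CPM in BC and 256 and 272 in LC (2.87 ± 0.32, adjusted p = 7.92e-05). Notch1 was also called (207 and 154 CPM in BC and 345 and 272 in LC; 0.77), but not without BC replicate 2 or without LC replicate 1, and Notch2 was not called (adjusted p = 0.0562). Notch2 was called without LC replicate 2 (0.87), without a filter (0.66) and with the library-number set as a term (0.65). The Notch target Hes1 read 97.2 and 33.2 CPM in BC and 179 and 132 in LC and was not called (adjusted p = 0.0507). It was called without BC replicate 1 (2.21), by DESeq2 (1.25), by limma-voom (1.51), without a filter (1.28) and with the library-number set as a term (1.35). Over the list, 2 of 19 were called higher (1 without BC replicate 2 or without LC replicate 1, 5 without a filter and 4 with the library-number set as a term) and 6 lower. The shares of all genes were 11.5% and 12.5%.

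**Figure D4:**
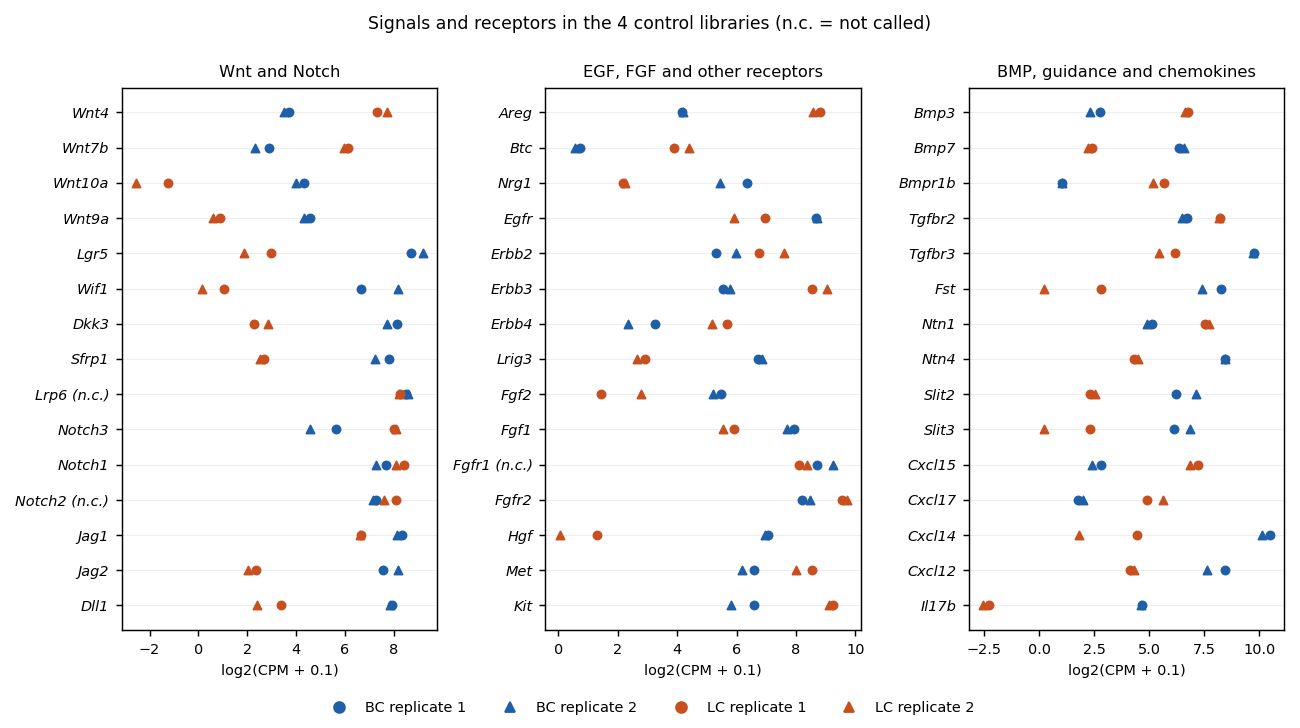
Log2(CPM + 0.1) of 45 ligands, receptors and antagonists in each control library, with colours, symbols and n.c. as for the lineage genes. Within families, members fall on opposite sides, such as Wnt4 against Wnt10a, Notch3 against Jag2, Erbb3 against Egfr, Bmp3 against Bmp7, Ntn1 against Ntn4 and Cxcl15 against Cxcl14.

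The EGF family was split as well, with 6 of 17 called higher and 5 lower. In fits that left out a library, calls in both directions were lost. With BC and LC libraries alone 5 were called higher and 4 lower, and with the library-number set as a term 8 and 6. The receptors Erbb3 (46.8 and 55.5 CPM in BC and 371 and 527 in LC; 3.13 ± 0.25, adjusted p = 9.59e-06) and Erbb4 (9.41 and 4.93 CPM in BC and 50.7 and 36.2 in LC; 2.63 ± 0.44, adjusted p = 0.0011) were luminal, and Egfr basal (405 and 423 CPM in BC and 124 and 59.6 in LC; -2.17 ± 0.32, adjusted p = 5.23e-04). Among ligands Areg (above) and Btc (1.57 and 1.36 CPM in BC and 14.6 and 21.1 in LC; 3.62) were luminal. Nrg1, the neuregulin that binds Erbb3 and Erbb4, was basal (81.3 and 43.5 CPM in BC and 4.44 and 4.59 in LC; -3.77 ± 0.56, adjusted p = 0.00101), so that this ligand and its receptors were higher in different populations, as were Areg and Egfr. Lrig3, a membrane protein related to the feedback inhibitor Lrig1, was basal too (106 and 116 CPM in BC and 7.37 and 6.17 in LC; -4.04).

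FGF ligands and feedback genes were mostly lower in LC: 10 of 18 were called lower (6 without BC replicate 2) and 2 higher. Fgf2 read 44.1 and 36.6 CPM in BC and 2.6 and 6.75 in LC (-3.08 ± 0.39, adjusted p = 1.87e-04), Fgf1 245 and 207 CPM in BC and 59.9 and 46.7 in LC (-2.08) and the feedback inhibitor Spry1 81.3 and 92.6 CPM in BC and 21.7 and 27 in LC (-1.84). The receptor Fgfr2 was higher in LC (292 and 354 CPM in BC and 748 and 837 in LC; 1.29 ± 0.23, adjusted p = 0.00188), and Fgfr1 lay below BC without passing (421 and 606 CPM in BC and 274 and 336 in LC; -0.75 ± 0.25, adjusted p = 0.0502), though it passed without BC replicate 1 (-1.01) and in 8 other alternatives, among them DESeq2 (-0.75), limma-voom (-0.73) and the library-number set as a term (-0.74). A similar arrangement held for hepatocyte growth factor: Hgf was basal, at 134 and 124 CPM in BC and 2.38 and 0.933 in LC (-6.34 ± 0.44, adjusted p = 4.92e-06), and its receptor Met luminal, at 95.6 and 72.4 CPM in BC and 377 and 256 in LC (1.92 ± 0.30, adjusted p = 7.08e-04). Gfra1, the receptor for GDNF, was basal (40.2 and 69.98 CPM in BC and 0.65 and 0.359 in LC; -6.80). Igfbp5 was abundant in both populations and not called (2385 and 4916 CPM in BC and 4069 and 2845 in LC). Of the 32 further growth factors and receptors, 3 were called higher and 15 lower.

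TGF-beta and BMP genes were called higher in 5 and lower in 7 of 26 cases. Bmp3 read 6.66 and 4.85 CPM in BC and 108 and 97.9 in LC (4.18 ± 0.30, adjusted p = 4.92e-06) and the receptor Bmpr1b 1.96 and 1.96 CPM in BC and 51.5 and 36 in LC (4.47 ± 0.35, adjusted p = 8.63e-06), both luminal. Bmp7 (80.6 and 94 CPM in BC and 5.2 and 4.52 in LC; -4.17 ± 0.29, adjusted p = 4.56e-06) and the coreceptor Tgfbr3 (874 and 833 CPM in BC and 71.3 and 43.1 in LC; -3.90 ± 0.37, adjusted p = 2.53e-05) were basal. Tgfbr2 was moderately higher in LC (104 and 89.1 CPM in BC and 297 and 285 in LC; 1.59), and the widely expressed Bmpr2 and Bmpr1a were not called (-0.18 and 0.21). YAP/TAZ pathway genes were called lower in 8 of 19 cases and higher in 3. The target Ccn2 read 861 and 952 CPM in BC and 46 and 29.5 in LC (-4.59 ± 0.31, adjusted p = 4.12e-06) and the receptor kinase Axl, another target, 254 and 262 CPM in BC and 9.54 and 12.6 in LC (-4.53), whereas the target Ccn1 varied between the LC replicates and was not called (965 and 835 CPM in BC and 1176 and 445 in LC). Tead2 (2.19), Tead4 (3) and the Hippo regulator Wwc1 (39 and 38.7 CPM in BC and 193 and 192 in LC; 2.31) were higher in LC.

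In the Hedgehog, Eda and Pthlh list 5 of 13 were called lower and 0 higher. Edar, the ectodysplasin receptor (10.8 and 30.9 CPM in BC and 0.867 and 0.574 in LC; -4.89), and its adaptor Edaradd (12 and 23.3 CPM in BC and 0.108 and 0 in LC) were both basal. Edaradd had 1 count in LC, a ratio of BC to LC of 460 with a 95% counting interval of 82 to 18200. Such intervals pool the counts of each population and leave out the spread between replicates. Pthlh, parathyroid hormone-related protein, read 13.7 and 19.7 CPM in BC and 0.434 and 0.215 in LC (-5.72 ± 0.41, adjusted p = 4.61e-06). Gli3 was lower by a smaller amount (-1.22), and Smo (-0.63) was not called. It was called without BC replicate 1 (-0.91), with upper-quartile factors (-0.69), with at least 5 CPM in 2 libraries (-0.65), with the library-number set as a term (-0.62) and on thinned counts (-0.68).

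Axon guidance genes were called lower in 16 of 33 cases and higher in 2 (1 without BC replicate 2). Slit2 (74.3 and 139 CPM in BC and 4.88 and 5.6 in LC; -4.34 ± 0.36, adjusted p = 1.18e-05) and Slit3 (69 and 116 CPM in BC and 4.77 and 1.08 in LC; -5.06 ± 0.58, adjusted p = 2.15e-04), secreted ligands of Robo receptors, were basal. The netrins were opposed, with Ntn4 basal (341 and 344 CPM in BC and 19.8 and 22.5 in LC; -4.01 ± 0.29, adjusted p = 4.92e-06) and Ntn1 luminal (34.9 and 29.3 CPM in BC and 186 and 209 in LC; 2.62 ± 0.38, adjusted p = 5.45e-04). Sema5a (-4.40) and Sema6a (-2.92) were basal, and Epha2 was not called (0.38). Genes better known from neurons were found on both sides. Sorcs1, a sorting receptor, read 12.7 and 89.6 CPM in BC and 0.108 and 0.0718 in LC, a ratio of BC to LC of 768 with a counting interval of 212 to 6350. That interval does not cover the wide gap between the BC replicates. Nrxn3, a neurexin, was opposite in direction (6.08 and 4.17 CPM in BC and 98 and 97.7 in LC; 4.29), a call lost in each of the 4 fits that left out a library. Of the 16 tested genes of this kind 6 were called lower and 5 higher, the latter 3 without BC replicate 1, 1 without BC replicate 2 and 3 without LC replicate 2.

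Ion channels were distributed between both layers, 12 of 36 higher in LC and 9 lower. On the luminal side stood the mechanosensitive channel Piezo2 (15.9 and 17.8 CPM in BC and 242 and 436 in LC; 4.33 ± 0.32, adjusted p = 5.99e-06), the cation channel Trpc6 (7.06 and 5.36 CPM in BC and 108 and 118 in LC; 4.21 ± 0.37, adjusted p = 1.55e-05), and subunits of the epithelial sodium channel, Scnn1a (24.9 and 13.5 CPM in BC and 171 and 139 in LC; 3.03) and Scnn1b (2.88). On the basal side stood the potassium channel Kcnq5 (75.5 and 92.8 CPM in BC and 0.434 and 0.359 in LC; -7.71 ± 0.52, adjusted p = 4.14e-06), the calcium channel subunits Cacna1c (52.7 and 69.5 CPM in BC and 4.77 and 1.44 in LC; -4.35) and Cacna1d (-3.35), Trpv4 (63.5 and 79.9 CPM in BC and 3.36 and 3.95 in LC; -4.29) and Kcnmb1, a smooth-muscle potassium channel subunit (15.1 and 41.7 CPM in BC and 0.434 and 0.144 in LC; -6.70). The gap junction protein connexin 43, Gja1, was basal (621 and 579 CPM in BC and 75 and 30.01 in LC; -3.52). The chloride channel Ano1 was present in both and not called (370.0 and 657 CPM in BC and 735 and 694 in LC).

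Transporters were called higher in 9 and lower in 7 of 28 cases. Slc12a2, the sodium, potassium and chloride cotransporter NKCC1, read 685 and 554 CPM in BC and 7203 and 7493 in LC (3.57 ± 0.33, adjusted p = 2.06e-05), with both LC libraries far above both BC libraries. The water channel Aqp5 read 8.62 and 5.7 CPM in BC and 130.3 and 99.9 in LC (4.04 ± 0.31, adjusted p = 7.41e-06) and the efflux pump Abcc3 11.8 and 17.3 CPM in BC and 108 and 208 in LC (3.43). The taurine transporter Slc6a6 was basal (563 and 862 CPM in BC and 92.6 and 87.5 in LC; -2.98 ± 0.27, adjusted p = 2.03e-05), and the glutamine transporter Slc1a5 less strongly so (-1.28). The glucose transporter Slc2a1 was not called (249 and 186 CPM in BC and 219.9 and 181 in LC).

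Chemokines were found on both sides. Cxcl14 read 1433 and 1114 CPM in BC and 21.4 and 3.45 in LC (-6.71 ± 0.79, adjusted p = 3.31e-04) and Cxcl12 347 and 198 CPM in BC and 17.3 and 19.5 in LC (-3.88 ± 0.35, adjusted p = 2.10e-05), both basal. Cxcl15 (6.86 and 5.19 CPM in BC and 147 and 116 in LC; 4.47 ± 0.39, adjusted p = 1.67e-05) and Cxcl17 (3.33 and 3.91 CPM in BC and 29.3 and 49.5 in LC; 3.42 ± 0.40, adjusted p = 1.12e-04) were luminal, as were the cytokines Lif (15.3 and 21.8 CPM in BC and 116 and 133 in LC; 2.73) and Tnf (11.8 and 7.82 CPM in BC and 84.2 and 36.5 in LC; 2.64). Spp1, osteopontin, was higher in replicate 1 than in replicate 2 of each population (126 and 24.7 CPM in BC and 725 and 133 in LC) and not called. It was called without BC replicate 1 (4.10), without LC replicate 2 (3.25), by DESeq2 (2.50) and with at least 5 CPM in 2 libraries (2.47). The list gave 6 higher (10 with the library-number set as a term) and 4 lower of 26.

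Defence genes gave 10 of 24 members called higher and 3 lower. Ido1, the tryptophan-degrading enzyme, read 0 and 0.765 CPM in BC and 12.5 and 23 in LC (5.14 ± 0.76, adjusted p = 5.32e-04, and 10.35 without BC replicate 2, a fitted value against 0 counts in BC and no bound). Cd14, a coreceptor for bacterial lipopolysaccharide, read 73.9 and 22.9 CPM in BC and 339 and 179.8 in LC (2.44). The protease inhibitor Slpi was basal (247 and 178 CPM in BC and 7.8 and 6.68 in LC; -4.88 ± 0.46, adjusted p = 4.41e-05), and complement C4b as well (704 and 579 CPM in BC and 219 and 216 in LC; -1.56). Complement C3 was high in LC replicate 1 alone (131 and 140.4 CPM in BC and 384 and 94.1 in LC) and not called. In the TNF and NF-kappaB list 10 of 23 were called higher (4 without BC replicate 1 and 4 without LC replicate 1) and 3 lower, with Tnfaip2 (19.8 and 12.9 CPM in BC and 112 and 70.1 in LC; 2.50) luminal and the adhesion molecules Icam1 (545 and 588 CPM in BC and 194 and 153 in LC; -1.71) and Vcam1 (82.5 and 103 CPM in BC and 14.3 and 4.31 in LC; -3.35) basal.

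Antigen presentation genes were called higher in 11 of 20 cases (6 without BC replicate 1, 7 without BC replicate 2, 7 without LC replicate 1, 6 without LC replicate 2 and 6 with BC and LC libraries alone) and lower in 1, a call lost without BC replicate 1, LC replicate 1 or LC replicate 2. The peptide transporter Tap2 read 31.9 and 34.8 CPM in BC and 111 and 129 in LC (1.84 ± 0.22, adjusted p = 1.13e-04) and the immunoproteasome subunit Psmb8 17.1 and 20.4 CPM in BC and 49.3 and 65.5 in LC (1.61). The class I genes H2-Q7 (2.03) and H2-Q6 (1.59) were higher too, but these near-identical copies cannot be told apart with certainty. Of interferon response genes 2 of 25 were called higher, against 11.5% of all genes, with 19 positive differences and a median of 0.51. The number called higher was 6 by DESeq2, 9 without a filter, 5 with BC and LC libraries alone, 4 with the library-number set as a term and 0 by limma-voom. The called members were Ifi44 (2.89) and Bst2 (2.74), each lost whichever library was left out. Irf1 was the 1 called lower (284 and 402 CPM in BC and 156 and 138 in LC; -1.22), except without BC replicate 2, where it was not called.

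Lipid synthesis supplies the fat of milk. Of 21 cholesterol synthesis genes 6 were called higher in LC (3 without BC replicate 2) and 0 lower. Msmo1, a sterol demethylation enzyme, read 10.2 and 4.76 CPM in BC and 36.1 and 32.1 in LC (2.23 ± 0.43, adjusted p = 0.00264). Fatty acid and lipid storage genes gave 8 higher and 3 lower of 29 (1 lower without BC replicate 2). Dgat2, which completes triglycerides, read 16.3 and 15.4 CPM in BC and 69.2 and 81 in LC (2.25 ± 0.24, adjusted p = 6.25e-05) and the desaturase Scd1 85.6 and 109.9 CPM in BC and 314 and 295 in LC (1.64), whereas Fasn (0.40) and Srebf1 (-0.05) were not called. In glycolysis the regulator Pfkfb3 stood out at 76 and 79.9 CPM in BC and 495 and 756 in LC (3.004 ± 0.26, adjusted p = 1.59e-05). The aldolase Aldoc was higher (1.52), and the lactate dehydrogenase subunit Ldhb lower (53.7 and 76.3 CPM in BC and 19.2 and 11.8 in LC; -2.08) while Ldha was not called (0.18). That list gave 4 higher (2 without BC replicate 1 or without LC replicate 2) and 2 lower of 20.

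Oxidative phosphorylation subunits were called higher in 5 of 76 cases (2 without BC replicate 1, BC replicate 2 or LC replicate 1 and 1 without LC replicate 2) and lower in 0, a share below the 11.5% of all genes. Of the 76 differences 70 were positive and 6 negative, with a median of 0.31. Both LC libraries lay above both BC libraries in 48 members and below in 2. Cytosolic ribosomal proteins lay the other way by a small amount: 78 of 80 differences were negative, with a median of -0.42, but only Rps19 was called (-0.81), a call lost whichever library was left out and with RLE factors. The number called lower was 16 with the library-number set as a term, 13 without a filter and 3 by DESeq2, by limma-voom and with upper-quartile factors. The mean log2 CPM of the list was 8.52 and 8.11 in BC and 7.98 and 7.83 in LC. BC replicate 2 thus lay closer to LC replicate 1 than to BC replicate 1, and the BC replicates differed about as much as the median difference. Rpl4 read 1597 and 1219 CPM in BC and 1247 and 868 in LC.

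Of enzymes of amino acid use, 6 of 15 were called higher and 1 lower. Glutamine synthetase, Glul, read 126 and 143 CPM in BC and 943 and 1675 in LC (3.29 ± 0.37, adjusted p = 8.74e-05). Tph1, the first enzyme of serotonin synthesis, read 0 and 1.28 CPM in BC and 13.1 and 28.1 in LC (4.67 ± 0.72, adjusted p = 7.93e-04, and 10.56 without BC replicate 2, again against 0 counts). Got1, an aspartate aminotransferase, read 8.82 and 6.8 CPM in BC and 59 and 44.7 in LC (2.74). Retinoid, steroid and xenobiotic genes were called higher in 5 and lower in 7 of 25 cases (3 higher without BC replicate 1, BC replicate 2 or LC replicate 2; 4 lower without BC replicate 2 and 3 without LC replicate 2).

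Unfolded protein response and secretory pathway genes were called higher in 11 of 27 cases (7 without BC replicate 2 and 6 without LC replicate 1) and lower in 0, with a median of 0.81. Hyou1, a chaperone of the endoplasmic reticulum, read 76.6 and 70.7 CPM in BC and 231 and 165 in LC (1.43 ± 0.25, adjusted p = 0.00153) and the cochaperone Dnajc3 153 and 112 CPM in BC and 327 and 304 in LC (1.26). Hspa5 (BiP) was higher in replicate 1 than in replicate 2 of each population (1489 and 557 CPM in BC and 2478 and 1281 in LC) and was not called, but it was called with the library-number set as a term (0.96). With a required difference above 2-fold 0 members of the list were called. Heat shock and proteostasis genes, a list of cytosolic chaperones and related genes, had 12 negative differences of 16 and a median of -0.46. Called higher were 0 and lower 2 of 16, no more than the share of all genes (12.5%). The lower calls numbered 0 without BC replicate 1 or LC replicate 1, 1 without BC replicate 2 or LC replicate 2, and 4 with the library-number set as a term.

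Cell cycle genes had 25 positive differences of 30 and a median of 1.17. Called higher were 3 of 30, near the share of all genes (11.5%), and called lower 0. The count depended on the fit. It was 11 by DESeq2, 12 without a filter, 9 with BC and LC libraries alone and 1 by limma-voom. It was 1 without BC replicate 1, 0 without BC replicate 2 and 1 without LC replicate 2. D-type cyclins were split: Ccnd1 read 22.3 and 23.6 CPM in BC and 209.6 and 203 in LC (3.16 ± 0.28, adjusted p = 1.57e-05) and Ccnd2 33.3 and 24.1 CPM in BC and 5.75 and 1.36 in LC (-3.07), the latter called with all libraries and without LC replicate 1 but in none of the other 3 such fits (-2.33 without LC replicate 2). Myc (677 and 637 CPM in BC and 268 and 121 in LC; -1.76 ± 0.34, adjusted p = 0.00291) and Mycn (10.8 and 12.6 CPM in BC and 1.08 and 0 in LC; -4.60, and -9.79 without LC replicate 1, against 0 counts in LC) were basal. Among p53 targets, 3 higher and 3 lower of 20 (all genes, 11.5% and 12.5%), Trp53inp1 was luminal (87.4 and 175 CPM in BC and 575 and 879.5 in LC; 2.46) and Phlda3 basal (52.9 and 87.8 CPM in BC and 5.53 and 5.6 in LC; -3.66 ± 0.29, adjusted p = 8.65e-06).

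Immediate-early genes are switched on within minutes of a stimulus. Fos read 5480.2 and 4986 CPM in BC and 2786 and 3069.6 in LC (-0.84 ± 0.30, adjusted p = 0.0639) and Fosb 3316 and 3768 CPM in BC and 3218 and 2888 in LC, neither called. Fos was called by DESeq2 (-0.84), by limma-voom (-0.85), without a filter (-0.84) and with the library-number set as a term (-0.84). Egr2 (above) and Egr3 (134 and 141 CPM in BC and 31.1 and 24 in LC; -2.32 ± 0.21, adjusted p = 2.05e-05) were basal. Of 21 members 6 were called lower in LC (3 without LC replicate 1) and 1, Klf6, higher (1.47), which was not called without BC replicate 1, BC replicate 2 or LC replicate 1.

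Nuclear receptors and clock genes gave 7 higher and 5 lower of 30 (11 higher with the library-number set as a term, 3 higher without BC replicate 2 and 4 without LC replicate 2; 2 lower without BC replicate 2 and 1 without LC replicate 2). Esrrg, an estrogen-related receptor, read 4.7 and 3.66 CPM in BC and 59.1 and 43.7 in LC (3.64 ± 0.30, adjusted p = 1.18e-05), and the clock repressor Nr1d1 25.3 and 37.2 CPM in BC and 121 and 173 in LC (2.22), with the cryptochrome Cry2 in the same direction (2.18). The glucocorticoid receptor Nr3c1 was lower in LC (161 and 172 CPM in BC and 92 and 72.6 in LC; -1.02), though not without LC replicate 2. Regulators of mesenchymal state and intermediate filaments were called lower in 7 of 18 cases (4 without BC replicate 1, 3 without BC replicate 2 and 4 without LC replicate 2). Vimentin, Vim, read 563 and 514 CPM in BC and 92.1 and 19.8 in LC (-3.27), a call lost without BC replicate 1 or without BC replicate 2. The epithelial splicing factor Esrp2 was higher (13.5 and 18.8 CPM in BC and 67.1 and 70.5 in LC; 2.08 ± 0.26, adjusted p = 1.88e-04). Of 35 Hox and patterning factors 14 were tested, with 2 called higher and 1 lower (all genes, 11.5% and 12.5%). Of these 14 differences 12 were negative, with a median of -0.98. The count of higher calls was 1 without BC replicate 1, BC replicate 2 or LC replicate 2, and that of lower calls was 2 without BC replicate 1 or LC replicate 1. Msx2, one of those called higher, read 1.18 and 1.62 CPM in BC and 20.2 and 21.6 in LC (3.85 ± 0.53, adjusted p = 3.07e-04).

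Of 3318 long noncoding RNAs tested, 425 were lower (12.8%) and 210 higher (6.33%), against 13.4% and 13.9% of 14567 protein-coding genes; whether these classes differ was not tested. Meg3, a maternally expressed imprinted RNA, read 28.6 and 65.6 CPM in BC and 1.63 and 0.431 in LC (-5.62 ± 0.58, adjusted p = 6.98e-05), and Rian of the same cluster 19.99 and 42.2 CPM in BC and 2.06 and 0.431 in LC (-4.74 ± 0.73, adjusted p = 0.00125). Malat1 read 10885 and 10582 CPM in BC and 9321 and 16600.0 in LC and was not called. Overlapping and antisense transcripts at these loci cannot be separated from the named genes here, because the strand setting of the counts is not known.

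Genome-wide, the largest differences toward the basal side belonged to genes that were at or near 0 in LC. Frmpd4, a synaptic scaffold gene (chrX:167471309-168577231, minus strand), read 9.995 and 25.2 CPM in BC and 0 and 0 in LC and was at least 136-fold lower in LC, taking 3 counts over the LC libraries as the limit. Unc79, a regulator of a sodium leak channel, read 19.99 and 31.5 CPM in BC and 0.108 and 0.0718 in LC, a ratio of BC to LC of 324 with a counting interval of 89.2 to 2680. Brinp3 read 39.8 and 33.2 CPM in BC and 0.217 and 0.0718 in LC, a ratio of 271 (interval 92.4 to 1320), and the cytokine Il17b 25.1 and 24.6 CPM in BC and 0.108 and 0.0718 in LC, a ratio of 286 (interval 78.8 to 2370). The BC replicates of Brinp3 and Il17b lay close together, and each LC library held 1 or 2 counts. In all, 159 called genes had at least 10 CPM in BC and under 1 CPM in LC, against 33 with the reverse. Those 33 include Ido1, Tph1 and Adra1a, an adrenergic receptor, at 0.784 and 0.935 CPM in BC and 19.2 and 26.1 in LC (4.67 ± 0.54, adjusted p = 1.02e-04). Itih2, which links to hyaluronan, read 4.12 and 9.44 CPM in BC and 132 and 235 in LC (4.69 ± 0.48, adjusted p = 7.53e-05), the acidic protease Ctse 3.33 and 5.44 CPM in BC and 130.4 and 87.4 in LC (4.58 ± 0.38, adjusted p = 1.19e-05), and the calpain Capn8 1.37 and 4.17 CPM in BC and 46.3 and 97.6 in LC (4.58). Dmbt1, a mucosal defence protein, read 0.588 and 4.51 CPM in BC and 32.6 and 124 in LC (4.75 ± 1.36, adjusted p = 0.0433) and was called in none of the 4 fits that left out a library, where it ranged from 3.49 to 7.04.

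BC and LC replicate 1 carry the numbers 44 and 45, and replicate 2 the numbers 80 and 81, which the labels do not explain. The difference LC minus BC was also read within each set. Of the 599 genes called at -4 or below, 473 had a more negative difference in the second set. Across all genes tested, the log2 differences of the sets had a correlation of 0.84 (19757 genes, which are not independent replicates).

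**Figure D5:**
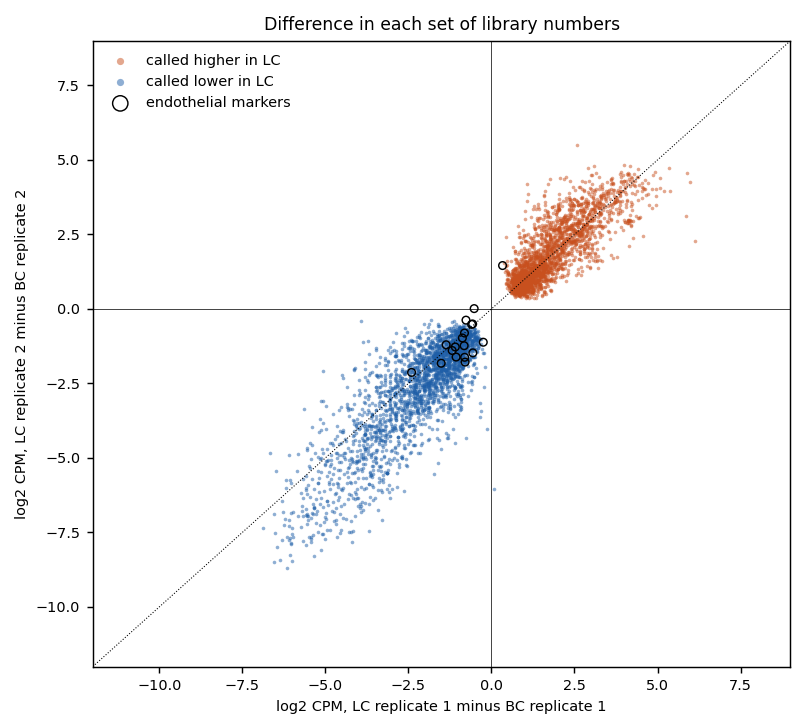
Log2 CPM difference of LC minus BC within library numbers 44 and 45 (x axis) and within 80 and 81 (y axis), for the genes called higher (orange) and lower (blue) in LC, with the dotted line marking equal differences. Open circles are the 18 endothelial markers. The calls rest on these same libraries, and 1780 of the 2468 blue points lie below the line.

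To see whether the separation of the layers was of the same size among cells of the ablated glands, LC minus BC was compared with TLC minus TBC in the same fit. This contrast joins ablation and Tomato marking, which cannot be told apart here. It called 180 genes (0.911%), 71 with a more positive difference in control cells and 109 with a more negative one, and 2101 genes had an unadjusted p under 0.05. Krt14 differed by -5.13 (adjusted p = 0.0163) and Krt5 by -3.92 (adjusted p = 0.0293), so both were more strongly basal among control cells. Mean Krt14 was 1527 CPM in TBC and 528 CPM in TLC, and mean Krt5 was 1084 and 129.5 CPM. Prlr (2.27), Pgr (2.31) and Esr1 (1.84) were more strongly luminal there. Acta2 (-0.67, adjusted p = 0.807) and Krt8 (0.37, adjusted p = 0.872) did not pass. Of 1134 distinct members of the lists of epithelial functions 49 were called.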

How the data were processed

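RNA sequencing libraries were made from sorted mouse mammary cells (RNeasy Micro, Ovation Solo RNA-Seq, NovaSeq, per the labels' protocols). STAR and HTSeq were used with the builds GRCm38 and mm10, per the submitters' processing notes; the sources used here do not give versions, annotation or strand setting. The deposited files hold raw counts per gene from the authors, with no normalization. Rows naming no gene were removed: in the 4 control libraries, no-feature rows took 19.53 to 27.38% and reads without a unique place 15.56 to 22.39% of all entries. Of 49671 gene identifiers 49412 matched GENCODE M21 for names.

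Counts of all 10 libraries in 5 groups were fitted with edgeR 4.0.16 in R 4.3.3 (TMM factors, default filter on low counts, robust quasi-likelihood F-test, 5 residual degrees of freedom), with Benjamini-Hochberg adjustment over 19757 genes. The difference between LC minus BC and TLC minus TBC was a contrast of the same fit. All members of the comparison were chosen by label, but the gene lists and comparisons were chosen with earlier results of these data known. Genes named were, per list, up to 5 called members in each direction with the largest difference among those with a mean of 10 CPM or more in the population where they were higher, and up to 2 uncalled members with the highest CPM; genome-wide, the 10 largest differences in each direction without overlap of libraries; and for the contrast with Tomato cells the 5 smallest adjusted p in each direction. Within these, genes whose calls held without each library were preferred after results were seen, and 43 further genes were named after their values were seen. CPM are TMM-scaled; counting intervals and floors of 3 counts cover counting error only.

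Alternatives were RLE and upper-quartile factors, DESeq2 1.42.0, limma-voom (limma 3.58.1), no filter, at least 5 CPM in 2 libraries, BC and LC libraries alone, the library-number set as a term, a 2-fold threshold, and each BC or LC library left out, where the lone library was assumed to vary like the other groups. Counts thinned to 5381351 per library and the difference within each number set were added after seeing the data. On simulated counts for LC against BC with 19226 genes in the fit, 9 of 99 genes changed 2-fold, 71 of 100 changed 4-fold and 8 of 19027 unchanged genes were called. Replicate counts differed beyond sampling noise (chi-square per degree of freedom 28.1 in BC and 30.5 in LC). This does not show that the libraries are independent. Each was treated as its own replicate, although no statement that they came from separate animals is given. A few genes that the naming rule selects are not reported here.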

Additional observations from a re-analysis of the deposited data

Results flagged for a closer look

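The lineage difference of 180 genes was not of the same size in control cells and in Tomato-marked cells of the glands labelled luminal cell ablation, by the test of (LC minus BC) minus (TLC minus TBC) in edgeR with Benjamini-Hochberg adjustment. Values below are that difference of differences on the log2 scale, positive where LC minus BC was the more positive. Lineage markers were among them: Krt14 at -5.13 (adjusted p = 0.0163), Krt5 at -3.92 (0.0293) and Trp63 at -2.43 (0.0303) on the basal side, and Pgr at 2.31 (0.0332), Prlr at 2.27 (0.0412) and Esr1 at 1.84 (0.0327) on the luminal side. Pthlh, a secreted ligand, stood at -4.98 (adjusted p = 0.00382), the purinergic receptor P2ry1 at -4.52 (0.00382), the exchange factor Arhgef28 at -3.35 (0.00382) and the transcription factor Osr1 at -3.54 (0.00397). The entry Mir7678, at -4.68 (adjusted p = 0.00397), lies within the span of Slpi on the same strand, and its reads cannot be told apart from those of unspliced Slpi RNA. In the other direction stood Tmem158 at 3.31 (adjusted p = 0.00528), the kinesin Kif5c at 3.21 (0.00693), the cadherin Cdh13 at 2.76 (0.00656), Tmem56 at 2.70 (0.00693) and the surface glycoprotein Cd200 at 2.06 (0.00707).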

How the results depend on the processing

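The number of genes called higher (2274) and lower (2468) in LC ranged from 1795 to 2826 and from 2092 to 3002 under other scaling, tools, filters, sample sets and depth. Requiring more than a 2-fold difference left 864 higher and 1258 lower. Leaving out a library gave 1486 to 1715 higher and 1645 to 2191 lower. The 180 genes that differed from Tomato cells became 505 with DESeq2, 725 without a filter and 425 with the library-number set as a term, which shared 179, 180 and 179 of the 180, and 129 with limma-voom, which shared 122; upper-quartile factors gave 177 and shared 148. Of 361 called genes named or used as markers, 241 kept their call under all of these alternatives and 120 lost it under at least 1, and 0 changed direction with a call. Foxc1, not called (-0.27), was called higher in LC without BC replicate 1 (1.19) and read -0.996 without BC replicate 2. The causes were not tested, except that fits without a library hold fewer samples. Upper-quartile factors shifted the median of all genes by -0.07. At this depth genes under about 1 CPM rest on few counts. With 2 libraries a group, 2-fold differences were mostly not called in the simulation, where nearly all genes were left unchanged. The data had 4742 called genes, with absolute log2 differences down to 0.56. With so few changed genes the adjusted threshold is stricter, so the simulated share does not give the detection rate of these data.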
